A study of Homo sapiens with 29 samples.

Results

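Histone genes whose messages are made for DNA replication, together with the linker histone H1 genes, were followed in BEAS-2B cells exposed to N-OH-PhIP. BEAS-2B is a virally immortalised line of human bronchial epithelium, and N-OH-PhIP is a DNA-reactive, hydroxylated form of the dietary carcinogen PhIP, found in grilled meat. The probe sets were chosen from the array's annotation as those with any gene symbol that starts with H1-, H2AC, H2BC, H3C or H4C and a number. This gave 69 of the 21357 gene entries, read by 78 of the 54613 probe sets that are not controls, and of the 69 entries 56 lie on chromosome 6, 6 on chromosome 1 and 7 elsewhere (GRCh38.p14). Among the 78 were 14 for H1, 16 for H2A, 20 for H2B, 12 for H3 and 16 for H4. One of the H1 probe sets matches H1-10-AS1, an antisense RNA, and 3 of all match the pseudogenes H1-9P, H2AC5P and H4C10P.

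The 29 arrays fell into 10 groups, each exposed for 24 h in LHC-9 medium with DMSO at 1%. They were DMSO alone and N-OH-PhIP at 0.1, 0.5, 1, 5, 10, 50, 100, 500 and 1000 nM, with triplicate cultures per the labels and 2 arrays at 0.5 nM. All doses were set against the same 3 DMSO arrays, so a deviation of those arrays enters every one of these comparisons. Arrays were close in level, with medians of 35.8 to 38.4, and their number limits the precision. Of the epithelial markers checked, 6 of 8 passed the level minimum given below, among them the keratins KRT8, KRT18 and KRT19 and the adhesion genes CDH1 and EPCAM. Of the leukocyte, endothelial and fibroblast markers, 0 of 4, 0 of 3 and 1 of 4 passed it, the fibroblast marker being COL1A1. RNA came from whole cultures, so a change in the share of cells that hold a message and a change in its amount per cell cannot be told apart.

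Nucleosomes wrap DNA around H2A, H2B, H3 and H4, and H1 binds the linker DNA between them. Most genes for these proteins sit in clusters, are transcribed in S phase, and give messages that end in a stem-loop bound by SLBP instead of a poly(A) tail. Some of them, such as H2BC5, H2BC12, H2BC21, H2AC6 and H1-2, are also known to give polyadenylated messages, especially in cells that leave the cycle, and H1-10 is a linker histone expressed outside S phase. The label protocol names NuGEN Ovation amplification, and the 18S and 28S ribosomal RNA controls of the array, which also lack poly(A) tails, show how much of such RNA was measured on each array.

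Promoters are shown for 2 H2B genes that rose and for an H3 and an H1 gene that fell, because these 4 mark both directions seen in the cluster on chromosome 6. Sequences are RefSeq's for GRCh38.p14, from 250 bases before to 50 bases after the gene start, and 59 of the 69 genes had one. Capitals mark, on either strand, the letters TTTGCAT (part of the octamer known from H2B promoters), CCAAT (known from many promoters), TATAAA (the core box bound by TBP) and the E2F-like letters TTTGGCG or else TTTCGCG. Where TATAAA overlaps its own reverse complement, the capitals run together. The windows are, for H2BC12, chr6:27146809-27147108, minus strand; for H2BC5, chr6:26157871-26158170, plus strand; for H3C3, chr6:26045134-26045433, plus strand; and for H1-3, chr6:26234938-26235237, minus strand.
H2BC12: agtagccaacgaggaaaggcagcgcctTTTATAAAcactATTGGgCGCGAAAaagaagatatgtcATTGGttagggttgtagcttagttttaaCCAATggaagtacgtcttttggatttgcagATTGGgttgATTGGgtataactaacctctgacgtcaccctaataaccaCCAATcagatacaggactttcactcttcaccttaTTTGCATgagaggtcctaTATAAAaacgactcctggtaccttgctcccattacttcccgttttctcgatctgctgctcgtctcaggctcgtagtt
H2BC5: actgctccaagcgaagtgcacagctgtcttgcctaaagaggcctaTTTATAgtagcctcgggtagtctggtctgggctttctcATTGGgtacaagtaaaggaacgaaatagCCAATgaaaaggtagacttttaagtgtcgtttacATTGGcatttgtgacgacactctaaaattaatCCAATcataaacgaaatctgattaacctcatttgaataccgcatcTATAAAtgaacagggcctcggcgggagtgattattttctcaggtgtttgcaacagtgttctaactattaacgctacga
H3C3: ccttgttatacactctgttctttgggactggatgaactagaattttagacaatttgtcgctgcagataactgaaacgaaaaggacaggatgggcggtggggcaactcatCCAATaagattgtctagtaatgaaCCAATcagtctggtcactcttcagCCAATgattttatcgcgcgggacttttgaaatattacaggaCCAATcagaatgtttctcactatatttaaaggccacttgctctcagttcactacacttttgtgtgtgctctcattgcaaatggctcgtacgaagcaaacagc
H1-3: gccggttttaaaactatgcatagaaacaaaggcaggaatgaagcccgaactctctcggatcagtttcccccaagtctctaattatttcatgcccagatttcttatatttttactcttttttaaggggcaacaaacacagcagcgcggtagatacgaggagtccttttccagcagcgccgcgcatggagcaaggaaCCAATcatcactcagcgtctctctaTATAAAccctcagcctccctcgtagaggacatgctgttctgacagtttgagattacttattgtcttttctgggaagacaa
CCAAT stood in all 16 H2B, all 13 H2A, all 8 H3 and 8 of 9 H1 promoters, in 3 of 13 H4 promoters, and in 34.6% of 35116 promoters of the same length. The octamer part TTTGCAT was found in 13 of 16 H2B promoters (81.2%), 8 of 13 H2A, 1 of 8 H3, and 0 of the 9 H1 and 13 H4 promoters, against 4.46% of all. TATAAA stood in 37 of the 59 histone promoters and in 11.5% of all. The letters TTTCGCG stood in 12 of the 59 and in 1.32% of all, and TTTGGCG in 1 of the 59 and in 1.92% of all. Of the promoters shown, the octamer part was in that of H2BC12, starting 45 bases before the gene start, and not in those of H2BC5, H3C3 or H1-3. These matches are letters in a window and say nothing on binding. Windows of close genes can overlap and hold the same letters, so the counts may not be of separate sites. H2BC8 ends at 26216688 and H2AC8 starts at 26216921. H3C4, the 1 H3 gene with the octamer part, ends at 26199293, as does H2AC7.

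At 1000 nM, H2B and H2A messages rose together, while H1-1, H1-3 and H3C3 fell. Values are normalized intensities, and changes are log2 differences of (intensity + 16) with their SE. The tests are limma's with Benjamini-Hochberg adjustment over the 27307 probe sets at or above the median mean level, an intensity of 37.4. Of the 78 histone probe sets, 34 passed this minimum, and 24 of them rose and 4 fell, where 28.9% of all tested probe sets were called higher and 31% lower (59.9% in all). The minimum is on the mean over all arrays. So 2 of the 34, 215779_s_at of H2B and 206110_at of H3, passed it only through their rise at 1000 nM. Both are kept in the counts and medians of the 34, of H2B and of H3, where their rise was favoured in advance. Over all 78 without a minimum, 41 rose and 4 fell. A rise of at least 1 on the log2 scale was called for 13 of the 34 and for 3.83% of all. Their median change was 0.41, and that of all tested probe sets was -0.01. In 24 of the 34, each 1000 nM array lay above each DMSO array, as in 31.8% of all, and in 4 each lay below, as in 33.3% of all. By histone, 9 of 9 H2B, 9 of 10 H2A, 3 of 5 H3, 2 of 3 H4 and 1 of 7 H1 probe sets rose, and 2 H1, 1 H3 and 1 H4 probe sets fell. Without the minimum, and so with the dim probe sets counted, 14 of 20 H2B, 14 of 16 H2A and 4 of 12 H3 probe sets rose. So did 7 of 16 H4 and 2 of 14 H1 probe sets. Of all probe sets 35.6% were called in that fit, with both directions counted.

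Histone messages are near copies of each other, which limits what a probe set can name. Of the 34, 11 carry several symbols, up to 14, and 14 have identifiers ending in _x_at, the maker's mark for probes that may also match other sequences. All 14 of these rose, with a median change of 0.84, and of the 6 ending in _s_at 5 rose, with a median of 1.22. Over the minimum, H2BC5, H2BC6, H2BC9, H2BC12L, H2AC14, H3C8 and H4C11 have no single-symbol probe set other than those ending in _x_at. Their rises may therefore not be of these genes alone. Among the 14 that end in _at alone, 5 rose and 4 fell, with a median of 0.04. That is near the 28.9% higher and 31% lower among all tested probe sets. The kind of probe set also differed between histones. Among those of H2B only that of H2BC12 ends in _at alone. Among those of H1 all do except that of H1-10. All 4 that fell at 1000 nM end in _at alone. Differences between histones are thus in part differences between kinds of probe set, and these were not tested apart.

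**Figure D1:**
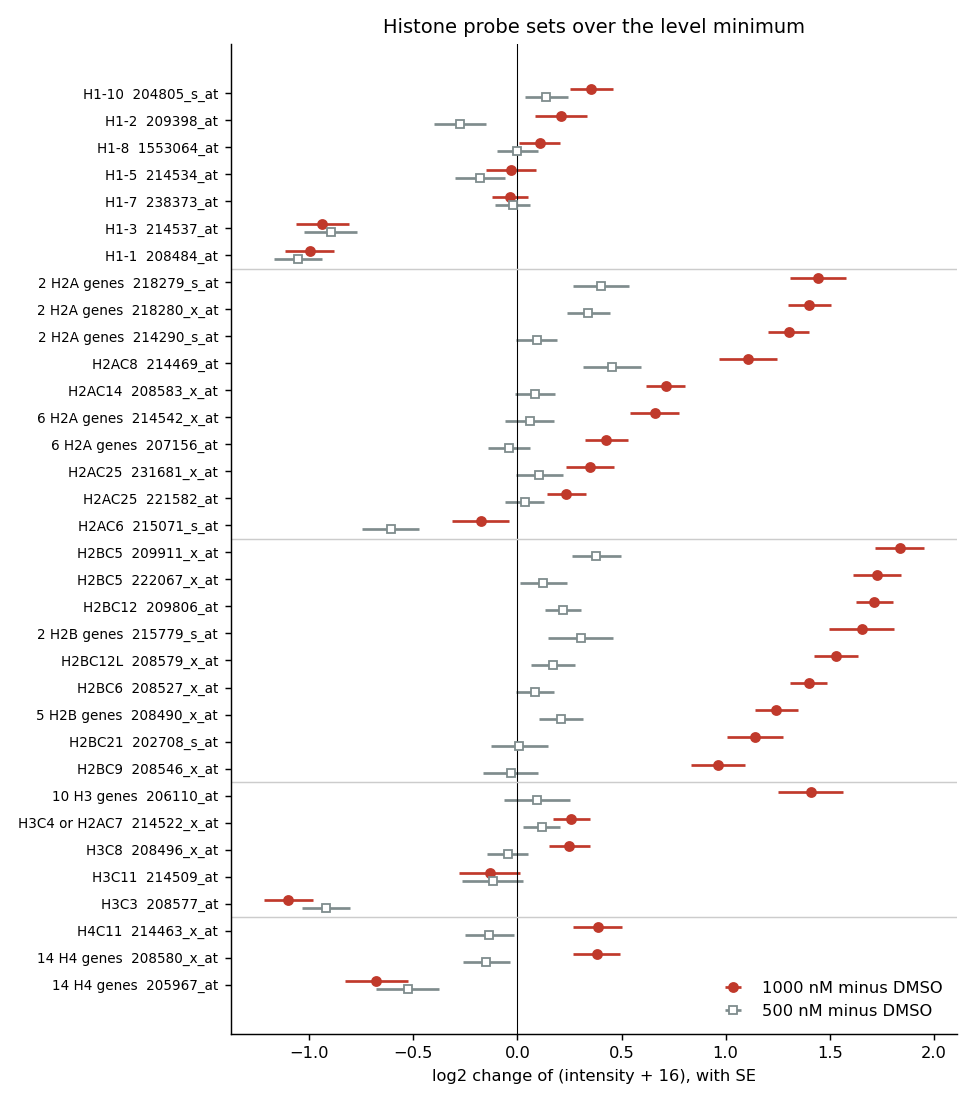
Log2 change at 1000 nM (filled circles) and 500 nM (open squares) against DMSO for the 34 histone probe sets over the level minimum, with SE as bars, grouped by histone from H1 at the top to H4. The 9 H2B probe sets lie between 0.96 and 1.84 at 1000 nM, while H1-1, H1-3 and H3C3 lie near -1 at both doses.

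H2B, which pairs with H2A in the nucleosome, had the highest median rise of the 5 histones, at 1.53 against 0.69 for H2A, -0.03 for H1, 0.25 for H3 and 0.38 for H4. H2BC12 (chr6:27138293-27146858) measured 1793, 1767 and 1714 at 1000 nM, 635, 670.2 and 543 at 500 nM and 537, 509 and 528 in DMSO. The 1000 nM arrays stood far above all others, with a change of 1.71 ± 0.09 (adjusted p 8.7e-15). H2BC5 (chr6:26158121-26171349) measured 471, 405 and 379.7 at 1000 nM, 117, 162 and 148 at 500 nM and 94.6, 116 and 106 in DMSO with 209911_x_at, and 566, 521 and 553 at 1000 nM, 175, 182 and 152 at 500 nM and 127, 180.4 and 159 in DMSO with 222067_x_at. Both H2BC5 probe sets rose, by 1.84 ± 0.12 and 1.73 ± 0.11, and in both the 500 nM and DMSO arrays lay far below the 1000 nM arrays. H2BC21, on chromosome 1 (149884459 to 149886682), measured 573, 586 and 540.4 at 1000 nM, 209, 248 and 300.2 at 500 nM and 219.5, 272 and 255 in DMSO and rose by 1.14 ± 0.14. These 3 genes are annotated over 8566, 13229 and 2224 bases. The other single-symbol histone genes tested on chromosome 6 had shorter spans, from 389 to 797 bases. Outside chromosome 6, longer spans were not confined to genes that rose, but those not called were dim. H1-8 spans 8293 bases and H1-7 1300, and neither was called. Both lay not far above the level minimum. H1-10 spans 1516 and rose at 1000 nM.

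The rise was also present in probe sets of the shorter H2B genes. Those of H2BC6, H2BC9 and H2BC12L end in _x_at and may also match other sequences. H2BC6 measured 353, 343 and 311 at 1000 nM, 123, 129 and 124 at 500 nM and 104, 124 and 124 in DMSO (1.40 ± 0.09), and H2BC9 measured 259, 249 and 208 at 1000 nM, 111, 117 and 107 at 500 nM and 115, 122 and 106 in DMSO (0.96 ± 0.13). H2BC12L, a gene on chromosome 21 with an H2B sequence, measured 708, 629 and 555 at 1000 nM, 229, 252 and 225 at 500 nM and 229, 215 and 181 in DMSO (1.53 ± 0.11). At 500 nM these 3 were not called against DMSO, and at 1000 nM their arrays did not overlap with either group. The probe set of H2BC8 and H2BC11, 215779_s_at, measured 136, 121 and 123 at 1000 nM, 41.3, 39.5 and 38.8 at 500 nM and 17.3, 39.5 and 34.2 in DMSO, and its DMSO arrays were at or below the level minimum except 1 (1.65 ± 0.16). The probe set of 5 H2B genes, 208490_x_at, measured 199.8, 195 and 167 at 1000 nM, 89.3, 84.6 and 76 at 500 nM and 57.8, 75.8 and 76.8 in DMSO (1.24 ± 0.11). Adjusted p for the 9 H2B probe sets ran from 8.7e-15 to 5.4e-07.

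H2A probe sets had a lower median rise than those of H2B, and the largest H2A rises were those of H2AC18 and H2AC19, a near-identical pair on chromosome 1. That pair is read by 3 probe sets, of which 218279_s_at measured 798, 645 and 501 at 1000 nM, 324, 353 and 237 at 500 nM and 214, 234 and 224 in DMSO. The probe set 218280_x_at measured 657, 539 and 543 at 1000 nM, 275, 314 and 223 at 500 nM and 207, 203 and 216 in DMSO, and 214290_s_at measured 649.7, 647 and 563 at 1000 nM, 253, 303 and 225 at 500 nM and 235, 247 and 242 in DMSO. Their rises at 1000 nM were 1.44 ± 0.13, 1.40 ± 0.10 and 1.30 ± 0.10, and no array of that dose overlapped with the others. H2AC8 measured 220.4, 174 and 207 at 1000 nM, 115, 143 and 107 at 500 nM and 81.3, 94.2 and 77.5 in DMSO, with a rise of 1.11 ± 0.14 at 1000 nM and of 0.45 ± 0.14 at 500 nM (adjusted p 0.01). The 500 nM call of H2AC8 was lost without 500 nM replicate 2. H2AC14 measured 201, 197 and 201 at 1000 nM, 119, 143 and 111 at 500 nM and 109.6, 121 and 117 in DMSO, a rise at 1000 nM of 0.71 ± 0.09. Smaller rises at 1000 nM were seen in 2 probe sets of a group of 6 H2A genes. One, 214542_x_at, measured 149.5, 106 and 111 at 1000 nM, 76.9, 78.3 and 67.4 at 500 nM and 61.6, 77.4 and 73.2 in DMSO (0.66 ± 0.12), and the other, 207156_at, measured 149.9, 169 and 158 at 1000 nM, 116, 106 and 109.9 at 500 nM and 102, 124 and 117 in DMSO (0.43 ± 0.10). H2AC25 on chromosome 1 measured 182, 138 and 146 at 1000 nM, 132, 144 and 111 at 500 nM and 108, 123 and 123 in DMSO with 231681_x_at (0.35 ± 0.11). With 221582_at it measured 227, 194 and 196 at 1000 nM, 177, 184 and 169 at 500 nM and 157, 172 and 189 in DMSO (0.24 ± 0.09, adjusted p 0.032). Both H2AC25 calls were lost without 1000 nM replicate 1 or without DMSO replicate 1, and that of 221582_at also without DMSO replicate 2. H2AC6 was the exception, at 547, 451 and 469 at 1000 nM, 297, 349 and 439.8 at 500 nM and 532, 578 and 551 in DMSO. It fell at 500 nM (-0.61 ± 0.14, adjusted p 0.00065) and was not called at 1000 nM (-0.18 ± 0.14, adjusted p 0.27).

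H3 and H4, which form the core tetramer, moved in both directions. H3C3 (chr6:26045384-26045869) measured 475, 443 and 428 at 1000 nM, 524, 633 and 399 at 500 nM and 995, 943 and 1001 in DMSO. Each array of the 2 doses lay below each DMSO array, with changes of -1.10 ± 0.12 at 1000 nM and -0.92 ± 0.12 at 500 nM (adjusted p 8.8e-09 and 4e-07). The probe set 206110_at, annotated to 10 H3 genes with H3C3 among them, measured 97.3, 129.9 and 115 at 1000 nM, 29.2, 38.4 and 41.4 at 500 nM and 25.4, 35.6 and 38 in DMSO, with a DMSO mean under the level minimum. It rose by 1.41 ± 0.16 at 1000 nM, opposite to the probe set of H3C3 alone. H3C8 measured 64.2, 66.3 and 62.6 at 1000 nM, 41.8, 54.1 and 53.1 at 500 nM and 46.6, 54.3 and 54.1 in DMSO (0.25 ± 0.10), and 214522_x_at, annotated to H3C4 and H2AC7, measured 94.1, 97.1 and 93.5 at 1000 nM, 78.1, 94.9 and 81.3 at 500 nM and 83.5, 78.5 and 68.6 in DMSO (0.26 ± 0.09). These 2 rises were small, and each lost its call without 1 array, H3C8 without DMSO replicate 1 or 1000 nM replicate 1 or 2, and 214522_x_at without DMSO replicate 3. The values of H3C11, at 33.9 ± 6.86 at 1000 nM and 38.7 ± 7.13 in DMSO, were not called. Of the H4 probe sets, 205967_at measured 99.5, 125 and 99.6 at 1000 nM, 119.6, 142 and 104 at 500 nM and 177, 199 and 169 in DMSO and fell at 1000 nM (-0.68 ± 0.15) and at 500 nM (-0.53 ± 0.15). By contrast 208580_x_at, annotated to the same 14 H4 genes, measured 190.3, 144 and 131 at 1000 nM, 99.5, 108 and 96.1 at 500 nM and 104, 124 and 115 in DMSO and rose at 1000 nM (0.38 ± 0.11). H4C11 measured 167, 133 and 131 at 1000 nM, 90.2, 112 and 84.5 at 500 nM and 101, 107 and 109 in DMSO and rose at 1000 nM (0.38 ± 0.12, adjusted p 0.0069). Without 1000 nM replicate 1 both H4 rises were no longer called (adjusted p 0.070 for 208580_x_at and 0.064 for H4C11).

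Linker histone probe sets, most of which end in _at alone, did not share the rise of H2B. H1-1 (chr6:26017032-26017787) measured 77.7, 92.7 and 73.2 at 1000 nM, 75, 86 and 71.1 at 500 nM and 159, 210.4 and 167 in DMSO, and H1-3 (chr6:26234212-26234987) measured 290.0, 297 and 258 at 1000 nM, 253, 388 and 247 at 500 nM and 549, 603 and 512 in DMSO. In both genes the arrays of 1000 and 500 nM lay below all DMSO arrays. The changes at 1000 nM were -1.0 ± 0.12 for H1-1 and -0.94 ± 0.13 for H1-3 (adjusted p 3.9e-08 and 5.2e-07). Of the 7 H1 probe sets that of H1-10 alone rose, at 1856, 1491 and 1487 at 1000 nM, 1299, 1679 and 1199.7 at 500 nM and 1079, 1326 and 1365 in DMSO (0.35 ± 0.10, adjusted p 0.0049), and it was not called without 1000 nM replicate 1 (adjusted p 0.057) or without DMSO replicate 1 (adjusted p 0.055). H1-2 averaged 474 ± 59.9 at 1000 nM, 334 ± 40.7 at 500 nM and 407 ± 34.7 in DMSO and was not called at either dose against DMSO, but was higher at 1000 than at 500 nM (0.49 ± 0.13, adjusted p 0.0028). H1-5 averaged 46.2 ± 6.96 at 1000 nM and 47.5 ± 5.75 in DMSO. The oocyte linker histone H1-8 averaged 64.5 ± 5.93 at 1000 nM and 58.6 ± 1.74 in DMSO, and the testis one H1-7 averaged 41.2 ± 2.24 at 1000 nM and 42.7 ± 3.57 in DMSO. None of these 3 was called at either dose. Genes of both directions lie near each other in the cluster. H1-3, which fell, lies 16775 bases after H2AC8 and 16627 bases before H2BC9, which both rose. H3C6 lies between H2AC8 and H1-3, and H4C6, H4C7 and H3C7 lie between H1-3 and H2BC9. None of these had a tested probe set of its own.

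The rise in H2B was largest at the top dose, while H1-1, H1-3 and H3C3 were also lower than in DMSO at 500 nM. Between 1000 and 500 nM, a comparison that leaves out the DMSO arrays, 22 of the 34 were higher at 1000 nM and 0 were lower, where 17.7% of all tested probe sets were called higher and 25.6% lower (43.3% in all). A difference of at least 1 was called for 12, and for 1.26% of all. In 23 each 1000 nM array lay above each 500 nM array, as in 17.8% of all, and in 0 each lay below, as in 23.6% of all. All 9 H2B probe sets were among the 22, with differences of 1.00 to 1.60. For H1-1, H1-3 and H3C3 the difference between the 2 doses was 0.06 ± 0.12, -0.04 ± 0.13 and -0.18 ± 0.12, and none passed the test. At 500 nM against DMSO, 5 of the 34 rose and 5 fell, where 23.1% of all tested probe sets were called higher and 22.3% lower (45.4% in all). The call of H2BC12 (0.22 ± 0.09, adjusted p 0.04) was lost without any 1 of the DMSO arrays, without 500 nM replicate 1 or 2, under quantile normalization (adjusted p 0.055), under median centring (0.089) and with no level minimum (0.063). The other risers were H2BC5 with 1 of its 2 probe sets (0.38 ± 0.12), H2AC8 and 2 of the 3 probe sets of H2AC18 and H2AC19. Those that fell were H1-1 (-1.05 ± 0.12), H1-3 (-0.90 ± 0.13), H3C3, H2AC6 and 205967_at of H4. With only these 2 groups in the fit, 1 rose and 5 fell at 500 nM. Without 500 nM replicate 2 the count called was 5 in place of 10. All 5 rises lost their calls there, and the 5 falls kept theirs. The calls of H2BC5 and of 218279_s_at, of H2AC18 and H2AC19, were also lost without DMSO replicate 1.

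**Figure D2:**
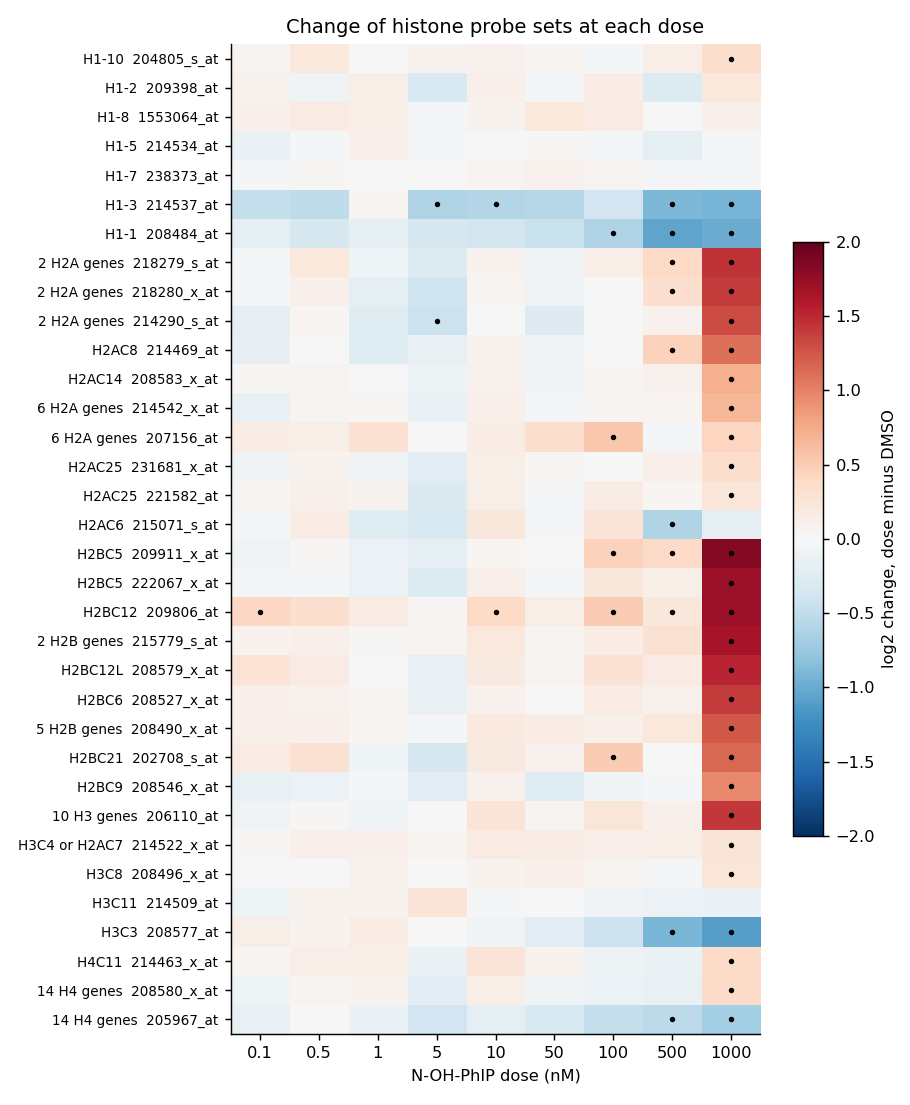
Log2 change against DMSO for the 34 histone probe sets over the level minimum (rows, by histone) at the 9 doses (columns, nM), with a dot where the limma test was passed. The H2B rows and the H2A rows other than H2AC6 turn red at 1000 nM, while the rows of H1-1, H1-3 and H3C3 are blue at 500 and 1000 nM.

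Across all groups, H2BC12 averaged 525 ± 13.8 in DMSO, 707 ± 14.8 and 662 ± 14.8 at 0.1 and 0.5 nM, and 591 ± 11.6 and 537 ± 40.5 at 1 and 5 nM. It averaged 698 ± 74.5 and 582 ± 77 at 10 and 50 nM, 756 ± 63.4 and 616 ± 65.7 at 100 and 500 nM, and 1758 ± 40.4 at 1000 nM (SD, n = 3, and n = 2 at 0.5 nM). Only 1000 nM stood apart from the range of the other groups, whose order did not follow dose. H3C3 averaged 979.5 ± 31.8 in DMSO, 1065 ± 64.9 and 1029 ± 28.6 at 0.1 and 0.5 nM, and 1086 ± 18.4 and 982 ± 150.4 at 1 and 5 nM. At 10 and 50 nM it averaged 936 ± 39 and 849 ± 90.9, at 100 and 500 nM 736 ± 95.1 and 519 ± 117, and at 1000 nM 449 ± 23.7. The H3C3 means fell at each step from 1 nM up, though no dose under 500 nM was called against DMSO. H1-1 averaged 179 ± 27.8 in DMSO, 153 ± 19.3 and 139 ± 0.998 at 0.1 and 0.5 nM, 156 ± 18.5 and 139.8 ± 12.3 at 1 and 5 nM, and 135 ± 15.6 and 126 ± 2.02 at 10 and 50 nM. It averaged 112 ± 15.2 and 77.4 ± 7.75 at 100 and 500 nM, and 81.2 ± 10.2 at 1000 nM, with neighbouring doses from 0.1 to 100 nM within their spread. H1-3 had no such order, with group means of 574 ± 61.9 at 1 nM, near that of DMSO (554 ± 45.4), and 396 ± 48 at 0.1 nM.

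Below 500 nM few calls were made. At 100 nM, H2BC12 (0.51 ± 0.09, adjusted p 0.00069), H2BC21 (0.51 ± 0.14), H2BC5 with 209911_x_at (0.45 ± 0.12) and 207156_at of 6 H2A genes (0.54 ± 0.10) rose, and H1-1 fell (-0.60 ± 0.12). These are 4 of 34 higher and 1 lower, where 1.37% of all tested probe sets were called higher and 1.53% lower (2.9% in all). Leaving out DMSO replicate 1, among others, gave 3, and leaving out 500 nM replicate 2 gave 7. H1-3 fell at 5 nM (-0.60 ± 0.13, adjusted p 0.018) and 10 nM (-0.59 ± 0.13, adjusted p 0.044). H2BC12 rose at 0.1 nM (0.42 ± 0.09, adjusted p 0.02) and 10 nM (0.40 ± 0.09, adjusted p 0.047). The only other call up to 50 nM was a fall of 214290_s_at at 5 nM (-0.43 ± 0.10). In these 6 comparisons 5 calls were made on the histone probe sets, and of all tested probe sets 0.597%, 0.0439%, 0.78%, 1.11%, 0.242% and 0.264% were called at 0.1, 0.5, 1, 5, 10 and 50 nM. Without DMSO replicate 2 the 5 calls became 0, and without 500 nM replicate 2 they became 9. With 0 calls, 3 probe sets at 0.5 nM, 2 at 1 nM and 5 at 50 nM had an unadjusted limma p under 0.05.

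**Figure D3:**
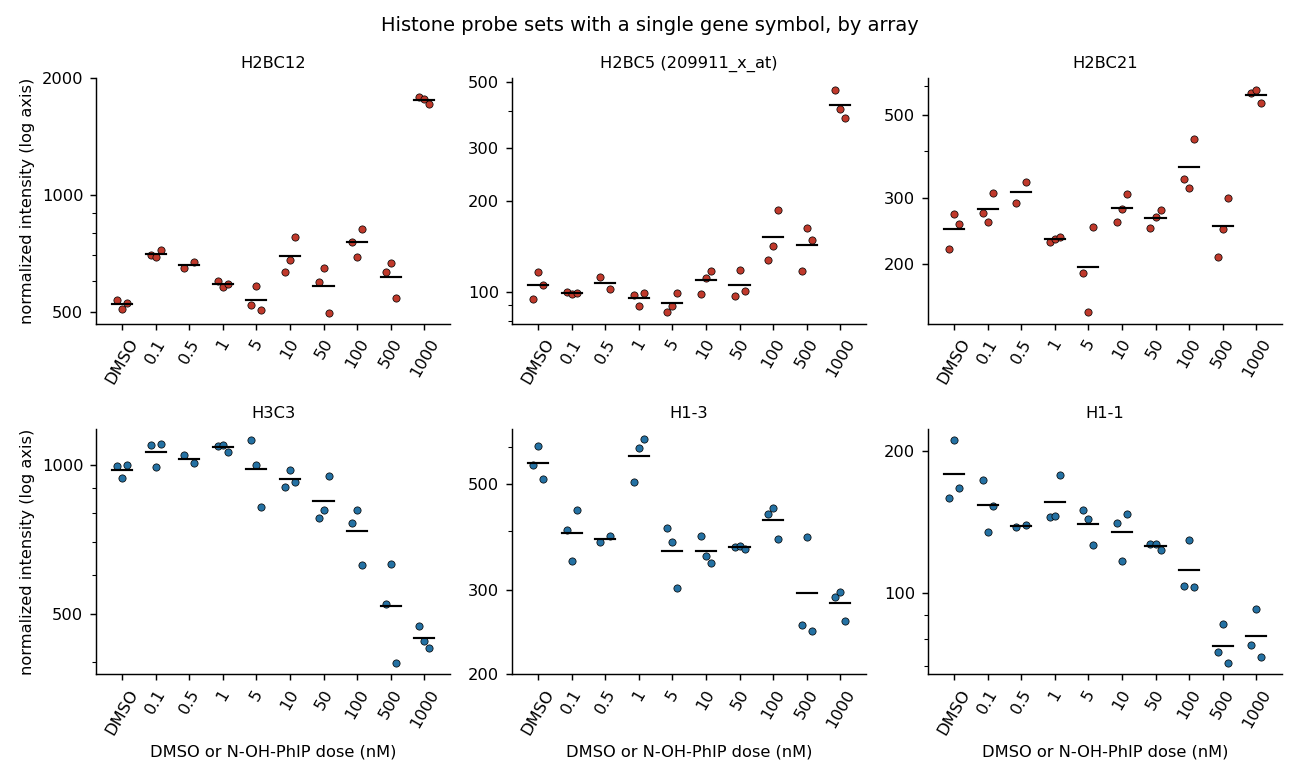
Normalized intensity (log axis) of 6 histone genes on each of the 29 arrays, from DMSO through rising dose, with group means as lines. H2BC12, H2BC5 and H2BC21 (top) stand apart at 1000 nM, and H3C3, H1-3 and H1-1 (bottom) are lowest at 500 and 1000 nM.

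Over the 26 treated arrays, the slope per 10-fold dose passed the test upward in 18 of the 34 and downward in 4, where 30.6% of all tested probe sets were called higher and 28.9% lower (59.5% in all). The steepest slopes among the 34 were those of H2BC5, 0.33 ± 0.07 with 209911_x_at, and H3C3, -0.31 ± 0.03. H1-1 had a slope of -0.22 ± 0.03 and H1-3 of -0.14 ± 0.04. For H2BC12 the group means of the doses up to 500 nM lay between 537 and 756, against 1758 at 1000 nM.

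Ribosomal RNA, which has no poly(A) tail, was also higher at 1000 nM. The 5′ probe set of 28S measured 166, 239 and 251 at 1000 nM, 41.7, 50.2 and 74.7 at 500 nM and 39, 41.4 and 47.5 in DMSO. The middle one of 28S measured 435, 678 and 450.3 at 1000 nM, 203, 194 and 223 at 500 nM and 226, 185 and 195 in DMSO. In both, all 1000 nM arrays lay above all others of the series. The 5′ probe set of 18S measured 379, 491 and 389.9 at 1000 nM, 139.5, 119.8 and 411 at 500 nM and 127, 152 and 141 in DMSO, and 500 nM replicate 3 lay among the 1000 nM arrays. The middle one of 18S measured 4670.5, 5577 and 4878 at 1000 nM, 2825, 2288 and 3177 at 500 nM and 3276, 3501 and 2948 in DMSO, and the 3′ one 558, 667 and 565 at 1000 nM, 231, 294 and 623 at 500 nM and 206, 219 and 221 in DMSO. The log2 changes at 1000 nM against DMSO were 1.98 ± 0.17 and 1.28 ± 0.12 for 28S, and 1.48 ± 0.34, 0.63 ± 0.12 and 1.40 ± 0.32 for 18S in the same order of probe sets. These 5 of the 6 rose (adjusted p 1.1e-08 to 0.0025, limma over the 62 control probe sets, of which 21% were called). The 3′ probe set of 28S, at 22.8, 18 and 19.8 at 1000 nM, 18.5, 19.2 and 15.8 at 500 nM and 21.8, 20.9 and 22 in DMSO, was not called. At 500 nM against DMSO 0 of the 6 were called (smallest adjusted p 0.19), and none had a log2 change as large as at 1000 nM except the dim 3′ probe set of 28S. At 0.1 nM the middle probe set of 18S was lower, at 2068 ± 380.1 against 3241 ± 278 in DMSO (-0.66 ± 0.12, adjusted p 0.0011), about as large a change as its rise at 1000 nM. The other 5 were not called at 0.1 nM (adjusted p 0.61 to 0.92).

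**Figure D4:**
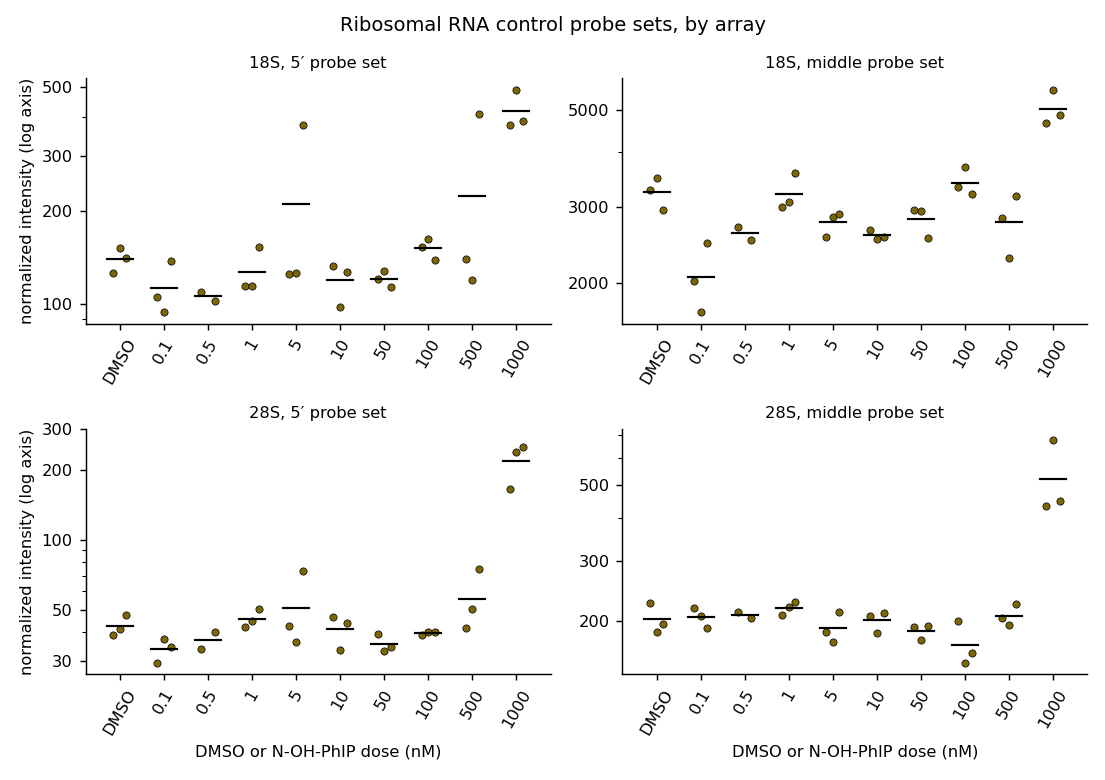
Normalized intensity (log axis) of 4 ribosomal RNA control probe sets on each array, from DMSO through rising dose, with group means as lines. All 4 group means are highest at 1000 nM, and the 18S 5′ probe set is also high on 1 array each at 5 and 500 nM.

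Both arrays on which the 18S 5′ level was also high were replicate 3 of its group. It was 377 on 5 nM replicate 3 and 411 on 500 nM replicate 3. Most histone probe sets were not higher on them. Each array was set against the mean of the other 2 arrays of its dose. Of the 24 that rose at 1000 nM, 9 were higher on 5 nM replicate 3, with a median difference of -0.05. On 500 nM replicate 3, 4 of the 24 were higher, with a median difference of -0.13. Over all tested probe sets the medians were 0.003 and -0.021. Each of these differences rests on 1 array and was not tested. H2BC12 was 505 and 543 on these arrays. The 28S 5′ level on them was 73.7 and 74.7 and the 28S middle level 212 and 223, all under those at 1000 nM. The 18S middle level on them was 2885 and 3177, and the 18S 3′ level 673 and 623. Without these 2 arrays, 24 histone probe sets rose and 4 fell at 1000 nM. The share of all probe sets called in that fit is not given here.

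With the mean log2 level of the 6 ribosomal controls as a covariate, 20 of the 34 rose and 5 fell at 1000 nM, where 51% of all tested probe sets were called. In that fit 8 of 9 H2B probe sets rose, the 9 changes ran from 0.45 to 1.97 with a median of 1.47, and H2BC21 was the one not called (0.45 ± 0.21, adjusted p 0.074). The falls of H3C3 and H1-3 were smaller, at -0.46 ± 0.17 (adjusted p 0.028) and -0.57 ± 0.23 (adjusted p 0.041), and that of H1-1 was -0.96 ± 0.23. H2AC6 (-0.77 ± 0.23) and H3C11 (-0.80 ± 0.24) fell there and H1-8 rose (0.43 ± 0.18). Calls were lost for 205967_at of H4 (-0.25 ± 0.28), 207156_at, H3C8, 214522_x_at and H2AC25 with 221582_at. The trend with dose had 4 calls in place of 22, which were H2AC8 upward and H1-1, H3C3 and 205967_at downward, where 34.2% of all were called. Of the 9 H2B slopes, 0 passed the test in it. The trend fit has no mean per group, so its covariate also takes up differences between doses. In the fit with a mean per group, the covariate acts only through differences within groups. Replicate 3 of 5 and of 500 nM stood out there, without the 28S levels of 1000 nM. That fit therefore cannot show how much of the change at 1000 nM goes with ribosomal RNA. All 3 arrays of 1000 nM are high in ribosomal RNA, so at that dose the exposure and the measurement of RNA without poly(A) cannot be told apart.

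Other histone-related genes were counted beside these. Of 16 genes of histone message processing, 6 rose and 5 fell at 1000 nM (median 0.07), near the 28.9% higher and 31% lower among all tested probe sets. The largest changes were in SRRT, a cap-binding partner in RNA processing (3208 ± 205 at 1000 nM against 1381 ± 109 in DMSO, a log2 change of 1.21 ± 0.08), CPSF2, a subunit of the cleavage complex (555 ± 58.7 at 1000 nM against 956 ± 88.3 in DMSO, a log2 change of -0.77 ± 0.10), and ZNF473, a zinc finger protein of the histone pre-mRNA machinery (412 ± 62.1 at 1000 nM against 261 ± 16.9 in DMSO, a log2 change of 0.62 ± 0.11). SLBP, the stem-loop binding protein, picked for its role, rose (2288 ± 104 at 1000 nM against 1783 ± 56.2 in DMSO, a log2 change of 0.36 ± 0.06), and NPAT, the coactivator of histone genes, also picked for its role, fell (776 ± 2.48 at 1000 nM against 1079 ± 38.1 in DMSO, a log2 change of -0.47 ± 0.06). At 500 nM 4 rose and 5 fell, where 23.1% of all were higher and 22.3% lower, and at 100 nM 0 were called.

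Of 13 histone chaperones, 3 rose and 2 fell at 1000 nM (median -0.04), a smaller share called than the 59.9% of all. ASF1B, the H3-H4 chaperone of proliferating cells, rose (2304 ± 75.1 at 1000 nM against 1122 ± 95 in DMSO, a log2 change of 1.03 ± 0.09). ATRX, a remodeller that works with DAXX, fell (1371 ± 50.7 at 1000 nM against 2039.6 ± 8.29 in DMSO, a log2 change of -0.57 ± 0.05), and DAXX itself rose (398 ± 62.8 at 1000 nM against 325 ± 6.54 in DMSO, a log2 change of 0.27 ± 0.10). Of 12 replication-independent histone variants, 8 had a tested probe set of their own, and 3 rose and 2 fell at 1000 nM, near the 59.9% called of all. H2AX, the variant phosphorylated at DNA breaks, whose message exists in stem-loop and polyadenylated forms, rose (2162 ± 199 at 1000 nM against 1071 ± 96.5 in DMSO, a log2 change of 1.00 ± 0.11). H3-3A, which codes for H3.3, rose (2667 ± 22.5 at 1000 nM against 1642 ± 45.2 in DMSO, a log2 change of 0.69 ± 0.09), and MACROH2A2 fell (161 ± 16.3 at 1000 nM against 282 ± 30.4 in DMSO, a log2 change of -0.75 ± 0.09).

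Of 21 S-phase genes tested, 13 rose and 4 fell at 1000 nM (median 0.26), and 8 rose and 7 fell at 500 nM (median 0.02). Of all tested probe sets 28.9% were higher and 31% lower at 1000 nM, and 23.1% higher and 22.3% lower at 500 nM. CCNE1, the cyclin of S-phase entry, rose (1163 ± 33.5 at 1000 nM against 525 ± 9.09 in DMSO, a log2 change of 1.12 ± 0.09), as did CDT1, which licenses origins (1379 ± 111 at 1000 nM against 854 ± 61.6 in DMSO, a log2 change of 0.68 ± 0.07). POLA1, the catalytic subunit of the primase polymerase, fell (461 ± 43.7 at 1000 nM against 832 ± 16.9 in DMSO, a log2 change of -0.83 ± 0.07).

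The other 44 histone probe sets lay under the level minimum, with group means of 6.35 to 91.3, and the highest mean of any in DMSO was 32.8. How much of that is background is unknown. In a fit of all 54613 probe sets without the minimum, 18 of the 44 rose at 1000 nM and 0 fell. At 500 nM 2 rose and 0 fell. Of all probe sets 35.6% were called at 1000 nM and 25.2% at 500 nM. Those shares count both directions and probe sets of all levels. They are no measure of the share called among dim probe sets, which was not computed. The largest rise was in 210387_at, annotated to H2BC8 and H2BC11, at 91.3 ± 15.9 at 1000 nM against 22.7 ± 1.03 in DMSO. H2AC17 measured 85.1 ± 17.5 at 1000 nM against 30.2 ± 3.7 in DMSO, and 208523_x_at of 5 H2B genes measured 63.7 ± 3.3 at 1000 nM against 27.3 ± 0.696 in DMSO. These 3 are those of largest change and were picked after their values were seen. The linker histone H1-4 was not called in that fit, with a mean of 32.3 ± 0.903 at 1000 nM and 32.8 ± 3.62 in DMSO.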

How the data were processed

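RNA of 29 BEAS-2B cultures was measured with an Affymetrix 3′ expression array. Per the labels' protocols, 40 ng of total RNA was amplified with NuGEN Ovation and biotin-labelled, and GCOS is named in the submitters' processing notes. Each deposited value is a linear intensity that the authors normalized, with a method and software version not given in the sources used here. Groups and doses came from sample titles, which reach 0.1 nM while the design text stops at 0.5 nM.

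Values were taken as log2(intensity + 16). Probe sets at or above the median mean level were tested, 27307 of 54613 after 62 controls were set aside for a fit of their own. Limma 3.58.1 in R 4.3.3 fitted a mean per group, 19 residual degrees of freedom, with a mean-variance trend except for the controls, and two-sided tests at adjusted p 0.05. The trend was a slope on log10 dose over 26 arrays. Symbols came from the array annotation, and all 69 histone entries matched RefSeq by gene identifier. Genes of the other lists were represented by their tested probe set of highest mean. Values in each array are given for histone probe sets called at 1000 nM, and the 3 largest called changes of each other list are named. The histone probe sets, the rule and the lists were chosen with earlier results of these data known. In simulated data with 27307 probe sets, 99% of changes of 1 and 66% of changes of 0.5 on the log2 scale were recovered at 1000 nM. There were 9 false calls beside 200 changed probe sets. That is a far smaller share changed than the 59.9% called at 1000 nM in the data. The adjusted cut depends on this share, so the recovery and false calls need not hold for the data. Alternatives are listed in the closing section. Figures were drawn with matplotlib 3.10.9.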

Additional observations from a re-analysis of the deposited data

How the results depend on the processing

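The precision is limited by 3 arrays a group and by dim signals: 44 of the 78 histone probe sets lay under the level minimum, and the share of their signal that is background is unknown. Counts called at 1000 nM (28), 500 nM (10) and 100 nM against DMSO (5), at 0.1 to 50 nM together (5), at 1000 against 500 nM (22) and along the trend (22) were recomputed, and the cause of each shift was not tested beyond what is named here. With no level minimum, and so with 78 histone probe sets tested, they were 45, 11, 3, 3, 38 and 41. With the upper 25% of levels, which leaves 7, they were 5, 4, 3, 5, 4 and 4. With histone probe sets of a single symbol only (23), 17 were called at 1000 nM, 13 between the top doses and 13 along the trend. With those ending in _at only (14), these were 9, 5 and 7, with 6 at 500 nM and 3 at 100 nM. The ribosomal covariate gave 8 calls at 0.1 to 50 nM and 4 along the trend, a fit without the mean-variance trend 3 at 0.1 to 50 nM, and a fit of DMSO and 500 nM alone 6 at 500 nM. Leaving out replicate 3 of 5 and 500 nM together gave 8 at 100 nM. Under quantile normalization or median centring 4 rose and 6 fell at 500 nM, against 5 and 5 as deposited. Leaving out each array in turn gave 22 to 28 calls at 1000 nM, 5 to 11 at 500 nM, 3 to 7 at 100 nM, 0 to 9 at 0.1 to 50 nM, 20 to 24 between the top doses, 18 to 22 along the trend, and 5 of the ribosomal controls each time. The 28 probe sets called at 1000 nM gave 1069 values over 39 settings, of which 1046 stayed called, 23 in 10 probe sets did not, and 0 changed sign. The 10 called at 500 nM gave 384 values, of which 19 in 5 probe sets were no longer called and 0 changed sign. Replicate numbers did not pair the samples, since deviations of same-numbered arrays correlated with those of DMSO at r of -0.52 to 0.21 (26 pairs, 3 above 0.1). With the replicate number as a block, 28, 10, 6, 4, 22 and 21 were called. A fit of the ribosomal controls with a mean-variance trend, chosen after seeing the data, also gave 5, and an offset of 1 in place of 16 left every count within 1 call. The share of all probe sets called also shifts with the setting. At 1000 nM it was 59.9% in the main fit, 35.6% with no minimum and 51% with the ribosomal covariate. For most other settings it is not given here, so those counts lack that measure.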
